A study of Mus musculus with 2 samples.

Results

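The genes described here encode the subunits of the oxidative phosphorylation (OXPHOS) machinery and were followed across tumour, airway, alveolar and cardiac-type tissue of mouse lung. They were chosen by symbol: all Ndufa, Ndufb, Ndufc, Ndufs and Ndufv genes, Cox4 to Cox8 genes, Uqcr genes and Atp5 genes of the nucleus, and the mt-Nd, mt-Co, mt-Cytb and mt-Atp genes of the mitochondrial genome. Of 32285 features, 94 matched, and 91 had at least 100 counts over the 2 sections: 79 nuclear and 12 mitochondrially encoded genes. The 3 left out were Cox8c with 1 count, Cox7b2 with 4 and mt-Nd6 with 17. By complex, the nuclear members comprised 36 genes of complex I, 8 of complex III, 18 of complex IV and 17 of complex V, and the mitochondrial members comprised 6, 1, 3 and 2 genes of the same complexes.

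Complex I takes electrons from NADH, complex III passes them through cytochrome c to complex IV, which reduces oxygen, and complex V uses the resulting proton gradient to make ATP. A few core subunits are encoded in mitochondrial DNA and transcribed inside the organelle, whereas all others are transcribed in the nucleus and imported, so that a working complex needs both. Several nuclear subunits exist as pairs, with a ubiquitous form and a form known from heart and skeletal muscle (Cox6a2, Cox7a1, Cox8b), from lung (Cox4i2) or from vessel-associated cells (Ndufa4l2).

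The data were Visium counts from 1 control lung, without treatment, and 1 metastatic lung from a mouse that had received 4T1 cells, a mouse mammary carcinoma line, in the mammary fat pad. Per the study's methods the injected mice were female Balb/c, 6 to 8 weeks old, and were killed 21 to 23 days later; strain, sex and age of the control are not given in the labels. Both sections were fresh-frozen and permeabilised for 18 minutes. With 1 section per condition there were no replicates, so intervals cover counting error alone and no p-value is given. Metastasis, animal and section cannot be told apart in any value set across the 2 lungs.

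Over 1888 control spots 20329126 counts were recorded, with a median spot at 9643.5, and over 1110 metastatic spots 14657881 counts, with a median spot at 11334.5. A spot can hold several cells. Spots were assigned to a class by marker genes of airway club cells, alveolar type I and capillary cells, cardiac muscle and proliferating cells, none of them an OXPHOS gene. In the control lung this gave 1029 alveolar, 146 airway and 92 cardiac-type spots, and in the metastatic lung 400 alveolar, 73 airway and 117 tumour spots. No control spot met the tumour rule and no metastatic spot the cardiac rule, and 585 and 511 spots met no rule. A further 36 and 9 spots had under 1000 counts outside Scgb1a1, haemoglobin and the OXPHOS genes.

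Class names were set against markers. Alveolar type I, club cell and cardiac genes took part in assigning the spots, so their levels describe the assignment. The alveolar type I list summed to 87.0 CP10k (counts per 10000 counts of the class) in control and 67.9 CP10k in metastatic alveolar spots. Cardiac-type spots held Myl7, the atrial myosin light chain, at 145 CP10k and Myh6, the cardiac myosin heavy chain, at 90.4 CP10k. Lists of other muscle and of fat were far below the cardiac list there (552 CP10k), but above their levels in control alveolar spots. The skeletal muscle list summed to 8.25 against 0.104 CP10k in control alveolar spots. The white fat list summed to 7.91 against 0.287 CP10k and the brown fat list to 1.51 against 0.0949 CP10k. Of the 5 brown fat genes 2 were at 0 in cardiac-type spots, Ucp1 among them. The brown fat list also holds Cpt1b, the muscle carnitine palmitoyltransferase, and its part in the sum was not tested. In mice, cardiac muscle surrounds the large pulmonary veins. Airway spots held the club cell gene Cyp2f2 at 46.8 CP10k in the control and 43.8 CP10k in the metastatic lung. Tumour spots were found by cell cycle genes (Mki67 1.15 CP10k, against 0.114 CP10k in alveolar spots of the same section) and by the loss of alveolar markers. Of the keratins, Krt14 had 0 counts and Krt17 had 1 count there, whereas Krt8 was at 2.18 CP10k and Krt18 at 1.58 CP10k, against 1.12 and 0.635 CP10k in alveolar spots of that section and 1.56 and 1.15 CP10k in control alveolar spots. The summed tumour list was 16.9 CP10k in tumour and 10.8 CP10k in metastatic alveolar spots. It was 15.7 CP10k in control alveolar spots, where no spot met the tumour rule. That list holds the cell cycle genes of the tumour rule, so its level in tumour spots partly describes the assignment. Mki67, Top2a, Cdk1 and Birc5 were at 1.15, 1.47, 1.23 and 1.04 CP10k in tumour spots. In control alveolar spots they were at 0.203, 0.174, 0.133 and 0.114 CP10k. Csn3 (0.493 CP10k) and Mmp3 (2.30 CP10k), singled out after their values were seen, were at 0.00237 and 0.0545 CP10k in alveolar spots of that section. As lists that the assignment did not use, the alveolar type II list was at 411 and 287 CP10k in control and metastatic alveolar spots, 256 CP10k in cardiac-type, 59.7 and 60.4 CP10k in control and metastatic airway and 40.3 CP10k in tumour spots. The ciliated cell list was at 20.1 and 12.48 CP10k in control and metastatic airway, 9.15 and 5.55 CP10k in alveolar, 7.54 CP10k in cardiac-type and 0.329 CP10k in tumour spots.

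On all counts, nuclear OXPHOS transcripts were most abundant in cardiac-type spots, next in tumour spots, and lower in alveolar and airway spots. As a summed level they made up 751 CP10k in cardiac-type spots (95% interval 746 to 756), 325 CP10k in tumour spots (322 to 327), 195 CP10k in control alveolar spots (194.5 to 196.3), 188 CP10k in metastatic alveolar spots (186 to 189), 137 CP10k in control airway spots (135 to 138) and 111 CP10k in metastatic airway spots (110 to 113). Control alveolar spots ranged from 83.5 to 298 CP10k with a median of 194 CP10k, and tumour spots from 183 to 401 CP10k with a median of 305 CP10k. The lower quartile of the tumour spots (277 CP10k) lay above the upper quartile of the metastatic alveolar spots (199.5 CP10k), and the lowest cardiac-type spot (363 CP10k) lay above the highest control alveolar spot. The place of the airway spots depended on the library size. Per 10000 counts without abundant genes (the secretoglobin Scgb1a1 and the haemoglobin, surfactant and immunoglobulin genes) the nuclear level was 810 in cardiac-type, 328 in tumour, 314 in control airway, 280.0 in metastatic airway, 220.3 in control alveolar and 218 in metastatic alveolar spots. These are levels of captured transcript ends, 1 count per molecule and not divided by gene length.

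Mitochondrially encoded transcripts did not follow the same order. On all counts, their summed level was 459 CP10k in cardiac-type spots (455 to 463), 138 CP10k in metastatic alveolar spots (137 to 139), 83.1 CP10k in control alveolar spots (82.6 to 83.7), 82.9 CP10k in tumour spots (81.6 to 84.2), 80.5 CP10k in control airway spots (79.5 to 81.4) and 68.7 CP10k in metastatic airway spots (67.7 to 69.7). Tumour and control alveolar spots thus had overlapping intervals for the mitochondrial level although their nuclear levels differed. Per 10000 counts without abundant genes the mitochondrial level was 495 in cardiac-type, 185 in control airway, 173 in metastatic airway, 160 in metastatic alveolar, 93.7 in control alveolar and 83.7 in tumour spots, so the airway spots moved from the lowest to the next highest after cardiac-type spots. Spots of one class differed widely: control alveolar spots ranged from 12.2 to 522 CP10k with a median of 60.5 CP10k, metastatic alveolar spots from 21.2 to 372 CP10k with a median of 140 CP10k, and tumour spots from 12.3 to 315 CP10k with a median of 39.9 CP10k.

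The ratio of nuclear to mitochondrial counts, which does not depend on the library size, was 3.92 in tumour spots (3.85 to 3.99) and between 1.36 and 2.35 in the other classes. It was 2.35 in control alveolar, 1.70 in control airway, 1.64 in cardiac-type, 1.62 in metastatic airway and 1.36 in metastatic alveolar spots. Parts of other classes reached the pooled tumour value. The 7 metastatic alveolar spots within 200 µm of a tumour spot had a ratio of 4.96. Beyond 1000 µm from the tissue edge the ratio was 3.96 in metastatic alveolar, 3.915 in metastatic airway and 7.22 in tumour spots. The median over spots was 7.73 in tumour spots, 3.27 in control alveolar spots and 1.32 in metastatic alveolar spots. Over the spots of a class, the log2 nuclear and mitochondrial levels were related with Pearson r = 0.69 in 92 cardiac-type spots and r = 0.38 in 117 tumour spots, but r = 0.10 in 1029 control alveolar and r = -0.24 in 400 metastatic alveolar spots. These spots share a library and a denominator, so the coefficients are descriptions.

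**Figure D1:**
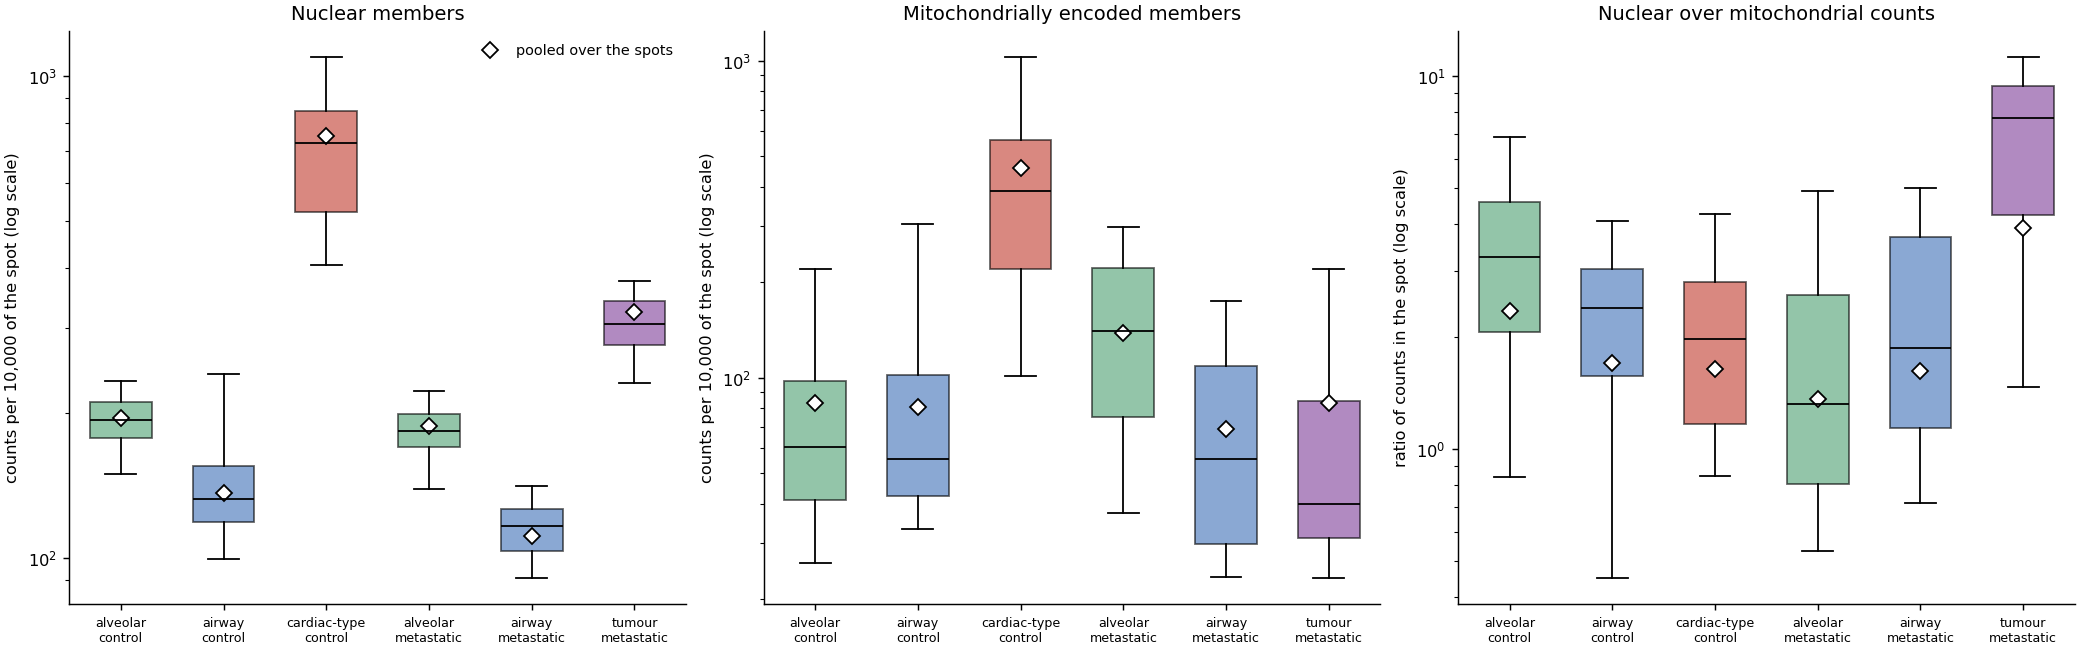
Spot levels of nuclear members, mitochondrially encoded members and their count ratio (log axes) in 6 spot classes. Boxes show quartiles and medians over spots, whiskers the 5th to 95th percentile, and diamonds the level pooled over all spots of the class. Nuclear levels are highest in cardiac-type spots (pooled 751 CP10k) and tumour spots (325 CP10k), whereas mitochondrial levels spread widely and the count ratio is highest in tumour spots (3.92).

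The mitochondrial level changed with position in the section and the nuclear level far less. Control alveolar spots within 200 µm of the tissue edge had 105 mitochondrial CP10k, those from 200 to 500 µm had 86.5 CP10k, those from 500 to 1000 µm had 69.5 CP10k, and those beyond 1000 µm had 66.7 CP10k. Metastatic alveolar spots in the same bands had 184, 140, 94.7 and 48.0 CP10k. The nuclear level over these bands stayed between 190 and 199 CP10k in the control and between 186 and 190 CP10k in the metastatic lung. Cardiac-type spots fell from 722 mitochondrial CP10k in the outer band to 208 CP10k in the inner band, and tumour spots from 129 to 33.6 CP10k, with the lowest tumour value (29.8 CP10k) between 500 and 1000 µm.

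Haemoglobin transcripts moved with the mitochondrial level as well. When alveolar spots were ranked and split into 3 equal groups by their summed red blood cell markers, the mitochondrial level was 50.7, 64.8 and 130 CP10k from the lowest to the highest group in the control and 82.7, 146 and 210 CP10k in the metastatic lung. The nuclear level of the same groups was 191, 200 and 195 CP10k in the control and 196, 191 and 171 CP10k in the metastatic lung. The ratio of nuclear to mitochondrial counts went from 3.76 to 1.503 in the control and from 2.37 to 0.811 in the metastatic lung between the lowest and the highest group. Among control alveolar spots the edge pattern was not shared: the red blood cell list rose from 195 CP10k in the outer band to 436 CP10k in the inner band while mitochondrial transcripts fell. In the other control classes both were higher in the outer than in the inner band: in airway spots the list was at 1115 against 26.9 CP10k and the mitochondrial level at 266 against 50.9 CP10k, and in cardiac-type spots they were at 431 against 132.5 CP10k and 722 against 208 CP10k. Among metastatic alveolar spots both were lowest in the inner band, where the list was at 236 CP10k. The part of blood transcripts and position in the class differences was not tested, and the comparisons of mitochondrial genes below are therefore also given within bands.

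**Figure D2:**
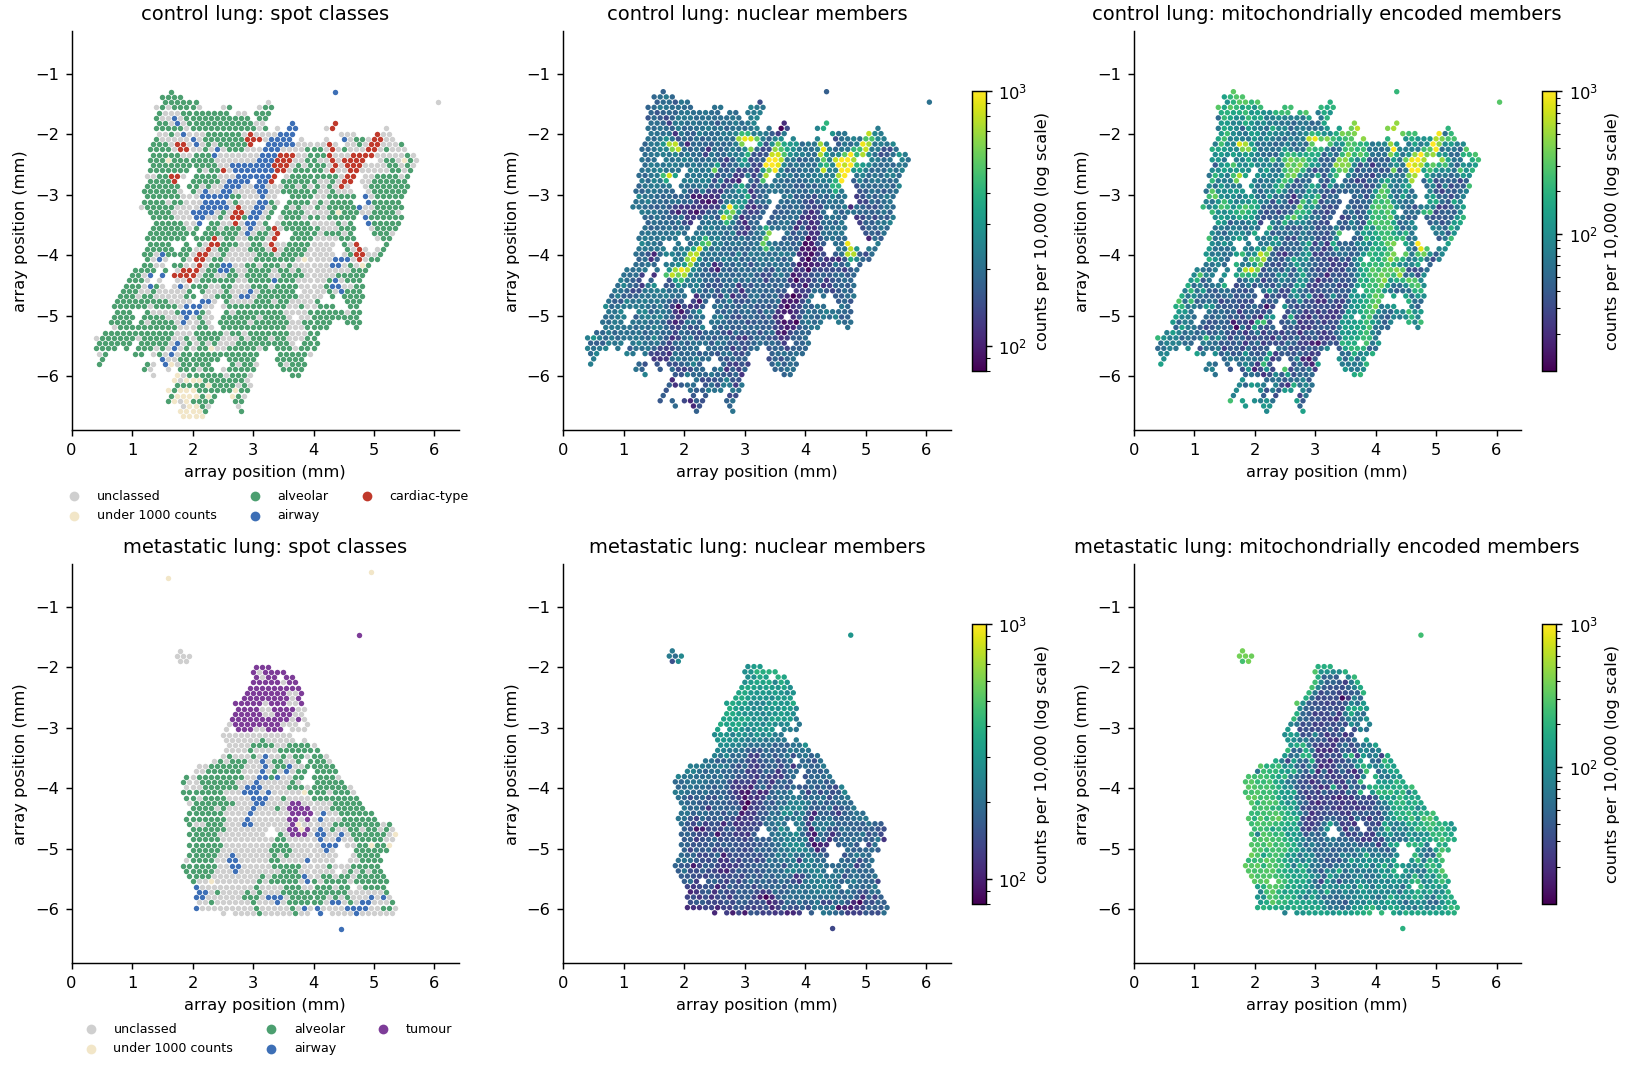
Position of every spot on the array (mm) in the control (top) and metastatic section (bottom), coloured by class (left), by the nuclear level (middle) and by the mitochondrial level (right), both in counts per 10000 on a log colour scale. Nuclear members stand out in the red cardiac-type patches (751 CP10k) and in the purple tumour masses (325 CP10k), and mitochondrially encoded members in the cardiac-type patches (459 CP10k) and at the left border of the metastatic section, outside the tumour masses (82.9 CP10k).

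**Figure D3:**
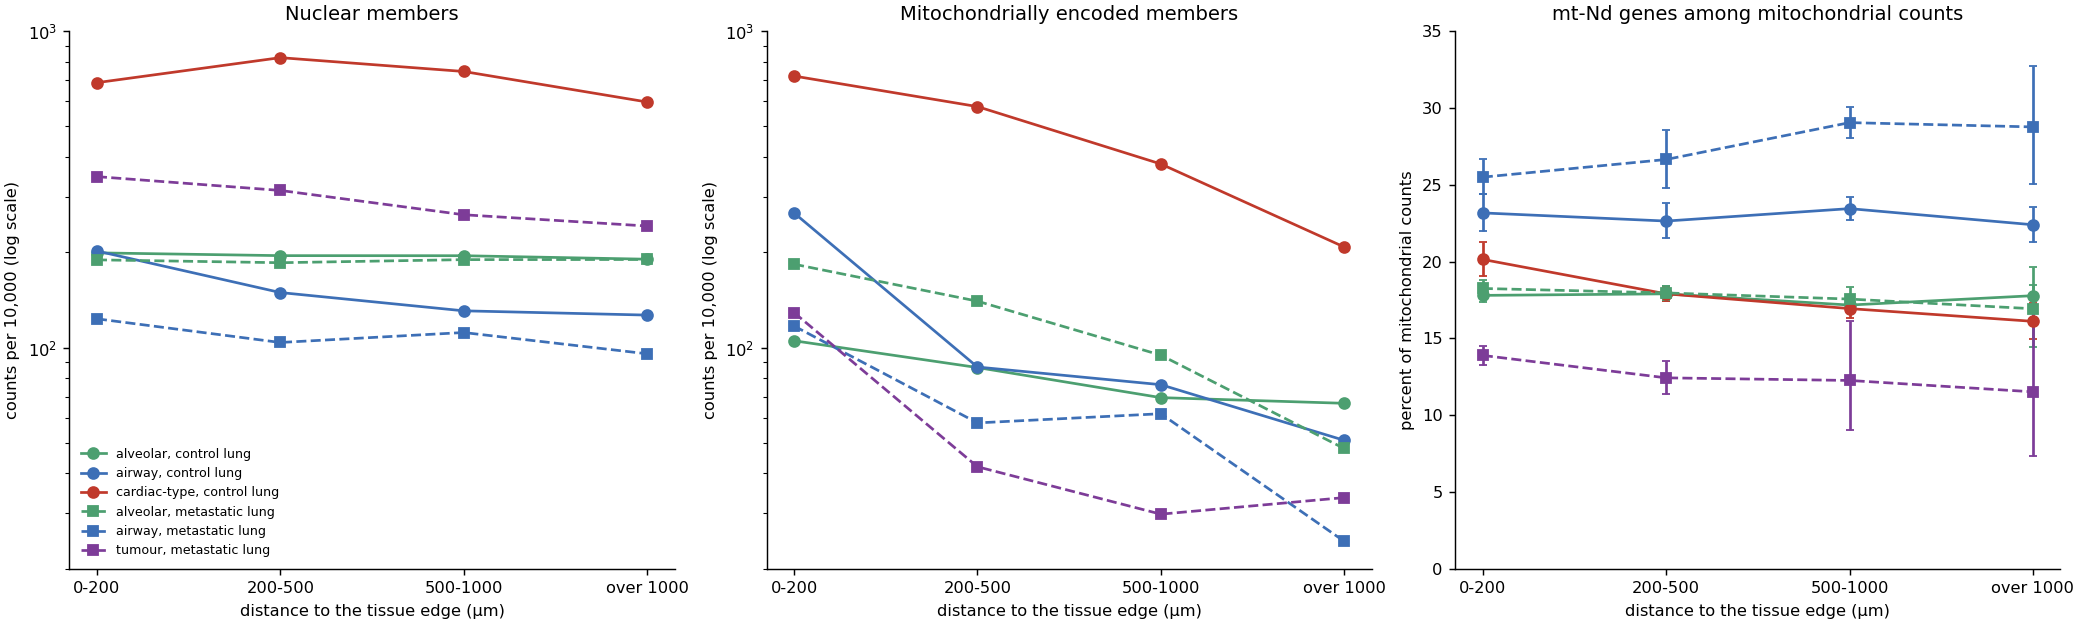
Pooled nuclear level (left, log axis), pooled mitochondrial level (middle, log axis) and percent of mitochondrial counts from mt-Nd genes with exact 95% intervals (right), by distance of the spot to the tissue edge in µm, for each class. Circles and solid lines are the control lung, squares and dashed lines the metastatic lung. The mitochondrial level of control alveolar spots falls from 105 to 66.7 CP10k and that of metastatic alveolar spots from 184 to 48.0 CP10k, the nuclear level of both is flat, and the mt-Nd share is lower in tumour and higher in airway than in alveolar spots in every band, while that of cardiac-type spots falls from 20.1% to 16.1%.

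Cardiac-type spots had more of almost all OXPHOS transcripts than control alveolar spots. Of 79 nuclear members, 73 (92.4%) were at least 1.5-fold higher and 2 were at least 1.5-fold lower, against 9.61% and 44.3% of 11670 features with at least 50 counts over both sides. All 12 mitochondrial members were at least 1.5-fold higher. The summed nuclear level was 3.84-fold higher (3.81 to 3.88) and the summed mitochondrial level 5.53-fold higher (5.46 to 5.59). Within the edge bands the mitochondrial ratio was 6.87, 6.68, 5.48 and 3.12 from the outer to the inner band and the nuclear ratio 3.45, 4.22, 3.82 and 3.14, so that cardiac-type spots were higher in each band for both genomes, and in the inner band the 2 ratios were alike.

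By complex, the nuclear ratio of cardiac-type over alveolar spots was 3.29 for complex I, 4.09 for complex III, 4.22 for complex IV and 3.98 for complex V. The mitochondrial ratio was 5.54, 6.30, 5.37 and 5.47 in the same order. Among single mitochondrial genes it ran from 3.45 for mt-Nd5 to 6.37 for mt-Co3, a core subunit of complex IV. Beside the muscle isoforms, the nuclear members with the highest ratios were Atp5g1, 1 of 3 genes for the same c subunit of complex V (13.5 against 1.38 CP10k, ratio 9.73, 9.03 to 10.5), and Uqcrfs1, the Rieske iron-sulphur protein of complex III (4.99 against 0.803 CP10k, ratio 6.21, 5.56 to 6.94). Cox4i2 (ratio 0.418, 0.337 to 0.513) and Ndufa4l2 (0.469, 0.340 to 0.631) were the 2 members that were at least 1.5-fold lower, and the ubiquitous forms Cox6a1 (0.881) and Cox8a (1.34) were close to 1 while the summed nuclear complex IV genes were 4.22-fold higher.

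The muscle forms of complex IV separated cardiac-type spots from all other classes. Cox6a2 was at 29.2 CP10k there and at 0.263 CP10k in control alveolar spots, a ratio of 111 (97.7 to 127). Cox7a1 was at 17.7 against 0.222 CP10k, a ratio of 79.6 (69.1 to 92.2), and Cox8b at 10.9 against 0.141 CP10k, a ratio of 77.3 (64.6 to 93.0). As a share of the pair, Cox6a2 made up 86.7% of Cox6a1 and Cox6a2 counts in cardiac-type spots (85.5 to 87.8%), Cox7a1 63.1% of Cox7a1 and Cox7a2 counts (61.4 to 64.8%) and Cox8b 59.5% of Cox8a and Cox8b counts (57.3 to 61.6%). In control alveolar spots the shares were 4.91%, 5.02% and 2.48%. In metastatic alveolar spots they were 1.94%, 1.15% and 0.726%, and the cardiac marker list stood beside them at 0.299 CP10k against 4.54 CP10k in the control alveolar spots. In tumour spots Cox8b had 0 of 2723 counts, which allows a share of up to 0.110%, whereas Cox6a2 had 34 counts (2.66%, 1.85 to 3.70%). The cardiac marker list had 21 counts there (0.105 CP10k), with 7 of its 10 genes at 0, Myh6 and Myl7 among them.

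**Figure D4:**
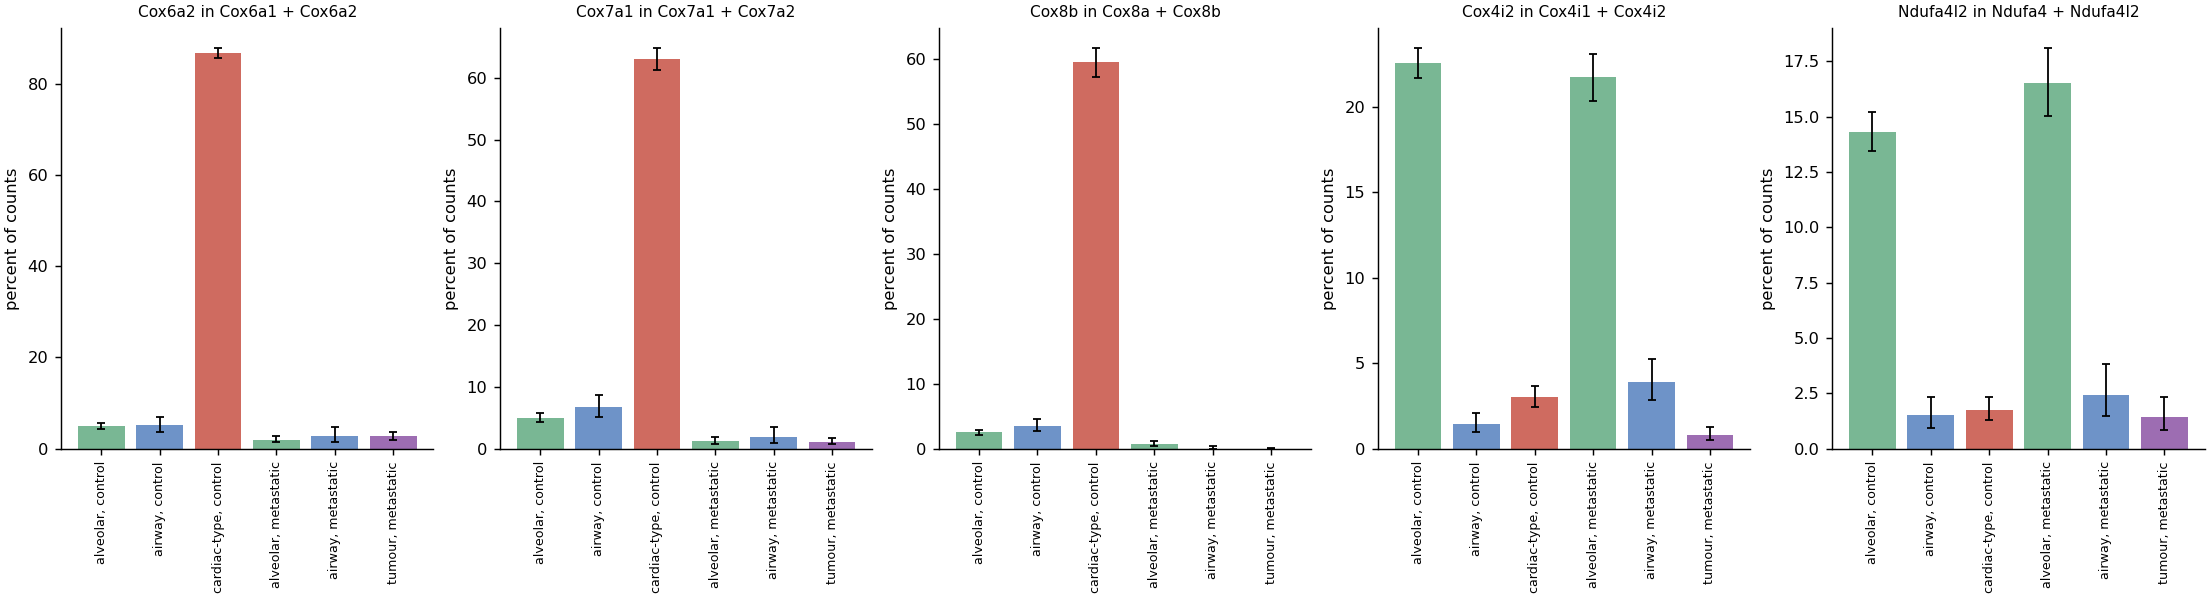
Percent of a paralogue pair's counts that came from the named isoform in 6 spot classes, with exact 95% binomial intervals, for Cox6a2, Cox7a1, Cox8b, Cox4i2 and Ndufa4l2; each panel has its own scale from 0. Cox6a2 (86.7%), Cox7a1 (63.1%) and Cox8b (59.5%) are the main form in cardiac-type spots, whereas the other classes stay at or below 6.68%, and Cox4i2 (22.6% and 21.7%) and Ndufa4l2 (14.3% and 16.5%) reach their highest shares in alveolar spots of both sections.

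The promoters of the muscle forms are shown beside those of their ubiquitous partners, because the 2 members of each pair moved so differently between the same spots. They are RefSeq sequences on GRCm38.p6, the assembly behind mm10, each running from 250 bases before to 50 bases after the annotated start on the gene's own strand. Of the 91 members, 63 had a promoter in the table; Cox6a2 was not among them. Capitals mark matches on either strand. The motifs searched were the E-box, which muscle regulators of the MyoD class bind, with the letters CANNTG. The MEF2-type motif was searched with the letters CTANNNNTA, with any base allowed at N, which is too loose to name a MEF2 site. The ETS-type motif, common in promoters of housekeeping genes, was searched as CCGGAAG on its own strand and its complement. The TATA-type motif, a core promoter element, was searched as TATAAA on the same windows. Cox7a1 lies at chr7:30183921-30184220 on the plus strand, Cox7a2 at chr9:79759804-79760103 on the minus strand, Cox8b at chr7:140900397-140900696 on the minus strand and Cox8a at chr19:7217567-7217866 on the minus strand.
Cox7a1: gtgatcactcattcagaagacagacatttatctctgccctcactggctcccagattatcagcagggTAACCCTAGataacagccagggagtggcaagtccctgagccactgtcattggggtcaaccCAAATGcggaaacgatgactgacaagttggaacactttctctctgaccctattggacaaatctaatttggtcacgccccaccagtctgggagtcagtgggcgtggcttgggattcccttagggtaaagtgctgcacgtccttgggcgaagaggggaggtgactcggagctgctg
Cox7a2: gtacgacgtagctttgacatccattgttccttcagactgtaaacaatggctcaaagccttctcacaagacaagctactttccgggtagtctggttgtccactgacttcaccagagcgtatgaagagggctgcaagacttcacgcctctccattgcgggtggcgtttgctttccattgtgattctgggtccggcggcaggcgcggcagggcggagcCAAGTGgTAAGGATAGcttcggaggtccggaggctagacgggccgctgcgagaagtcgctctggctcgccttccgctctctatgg
Cox8b: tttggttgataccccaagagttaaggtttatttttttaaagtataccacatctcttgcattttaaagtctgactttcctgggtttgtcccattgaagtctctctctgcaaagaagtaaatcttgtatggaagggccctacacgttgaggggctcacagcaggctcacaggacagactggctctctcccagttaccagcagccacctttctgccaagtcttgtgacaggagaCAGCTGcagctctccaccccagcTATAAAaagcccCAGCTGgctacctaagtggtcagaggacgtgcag
Cox8a: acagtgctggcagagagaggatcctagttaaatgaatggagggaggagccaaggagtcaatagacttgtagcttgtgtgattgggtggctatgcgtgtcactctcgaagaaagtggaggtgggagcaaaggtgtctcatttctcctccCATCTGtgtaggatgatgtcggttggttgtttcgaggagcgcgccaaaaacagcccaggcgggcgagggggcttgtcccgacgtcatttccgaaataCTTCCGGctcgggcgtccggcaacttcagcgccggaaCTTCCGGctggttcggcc

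The Cox8b window held 2 E-box matches and 1 TATA-type match and no ETS-type match, and the Cox8a window held 2 ETS-type matches and 1 E-box match. Cox7a1 and Cox7a2 each held 1 E-box match and 1 match to the loose MEF2-type letters. Both of the latter had G or C among the bases at N, so neither is read as a MEF2 site. Over 32851 promoters of the same length, 72.3% held an E-box, 21.0% the MEF2-type letters, 13.6% the TATA-type letters and 8.86% the ETS-type letters. The muscle forms had fewer CG pairs, 7 for Cox7a1 and 2 for Cox8b, than the ubiquitous forms, 20 for Cox7a2 and 19 for Cox8a, and the median over all promoters was 7. A match describes letters and does not show that a factor binds there.

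The isoform shares followed how much cardiac muscle a spot held. Across control spots outside airways, from under 20 cardiac marker counts per 10000 to 500 and more, the Cox6a2 share was 5.26%, 21.5%, 53.0%, 75.6% and 89.4% in 5 steps (1372, 219, 22, 36 and 56 spots). Cox7a1 passed from 5.33% to 64.8% and Cox8b from 2.90% to 63.7% over the same steps. The summed nuclear level rose from 189 to 873 CP10k. Cox6a1, the ubiquitous partner of Cox6a2, was at 4.75 CP10k in the first step and 4.32 CP10k in the last, with 6.19 CP10k in the middle step. Cox7a2, the partner of Cox7a1, went from 3.97 to 11.95 CP10k, so that in this pair both forms were highest where cardiac markers were highest.

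Other energy and mitochondrial genes of cardiac-type spots differed by list. Of all 11670 features 9.61% were at least 1.5-fold higher and 44.3% at least 1.5-fold lower in this comparison. All 9 genes of complex II and the electron carriers were at least 1.5-fold higher than in alveolar spots, with cytochrome c (Cycs) at a ratio of 7.60. Of 16 tested tricarboxylic acid cycle genes 15 were higher, and of 15 fatty acid oxidation genes 14 were higher, with the muscle carnitine palmitoyltransferase Cpt1b at 19.0 and its liver form Cpt1a lower at 0.526. Glycolysis had 9 of 16 tested genes higher, and 27 of 78 mitochondrial ribosome genes were higher. Among genes that maintain and transcribe mitochondrial DNA 1 of 15 tested was at least 1.5-fold higher, a share near that of all features, and 3 were lower, with the transcription factor Tfam at 1.01 and the polymerase Polrmt at 1.07. Of 14 tested complex I assembly factors 4 were higher and 2 lower. Of 24 tested assembly factors for complexes III, IV and V 9 were higher and 2 lower. Of 5 tested regulators of mitochondrial content none was higher and 3 were lower. The median log2 ratio was 1.84 for complex II and carriers, 1.55 for the tricarboxylic acid cycle and -0.00286 for mitochondrial DNA maintenance. It was 0.42 for complex I assembly, 0.49 for the other assembly factors and -0.86 for the regulators, against -0.46 for all features tested.

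**Figure D5:**
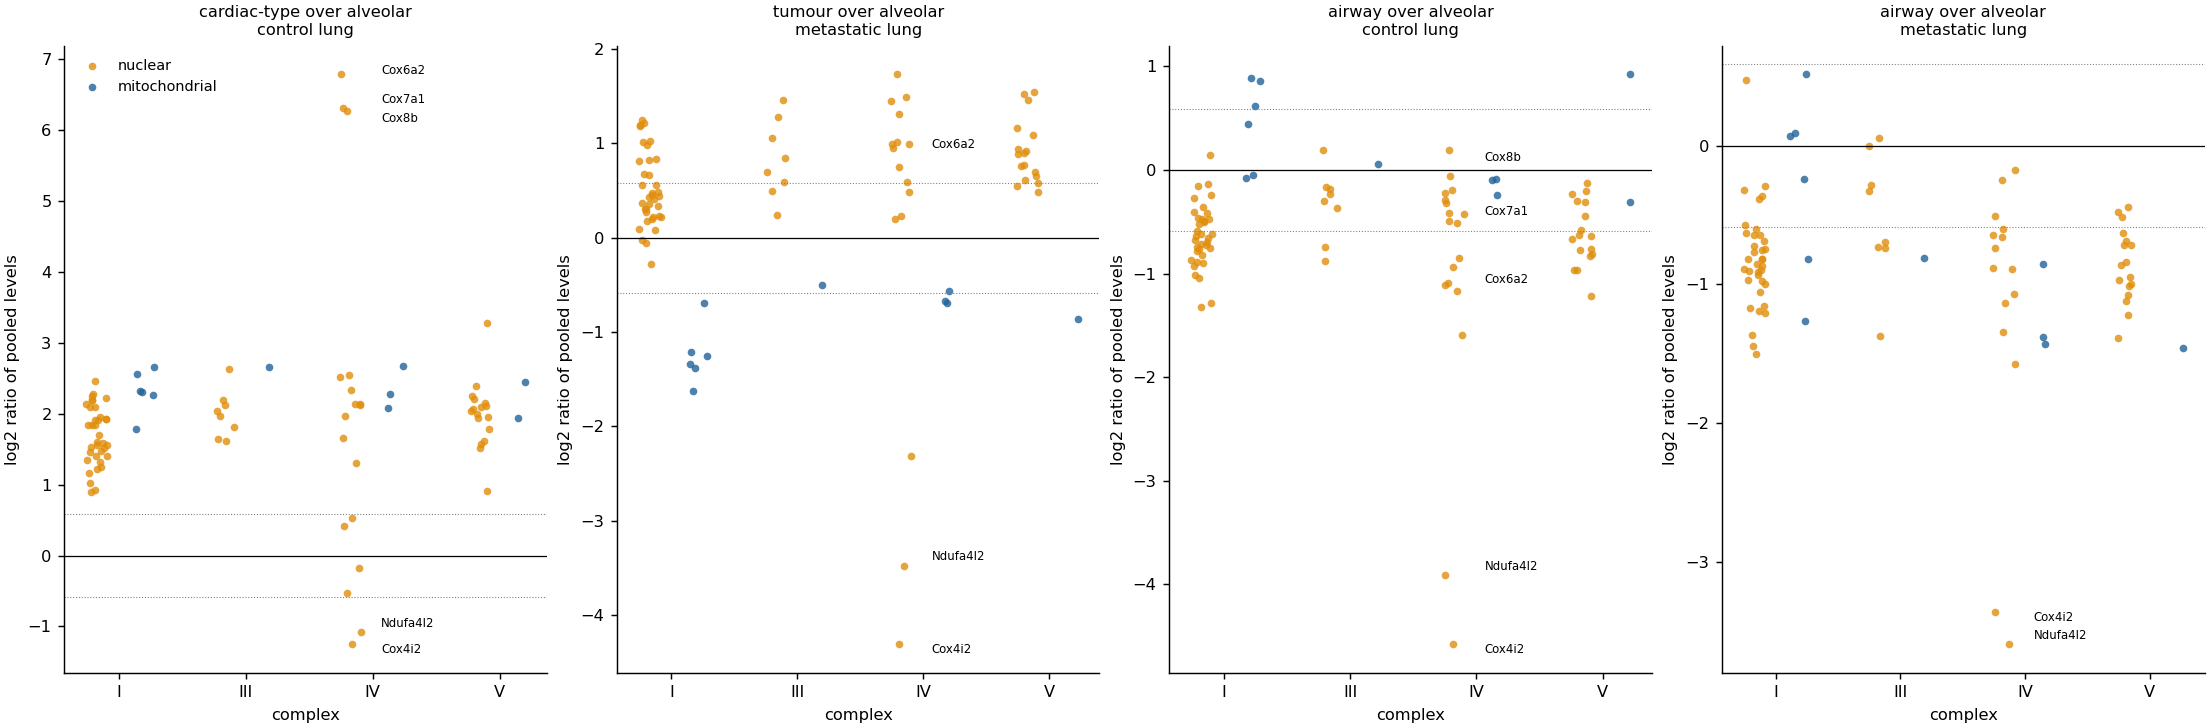
Log2 ratio of pooled levels for each member with at least 50 counts over both sides, by complex, in 4 comparisons with alveolar spots of the same section; orange points are nuclear and blue points mitochondrially encoded genes, and dotted lines mark 1.5-fold. In cardiac-type spots all 12 mitochondrial genes and 75 of 79 nuclear genes lie above 0, with Cox6a2, Cox7a1 and Cox8b above 6. Cox4i2 lies there at -1.25 and Ndufa4l2 at -1.08. In tumour spots all 11 tested mitochondrial genes lie below 0 and 71 of 77 nuclear genes above it, with Cox4i2 at -4.31 and Ndufa4l2 at -3.48.

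In tumour spots the 2 genomes went opposite ways relative to alveolar spots of the same section. Of 77 tested nuclear members, 42 (54.5%) were at least 1.5-fold higher and 3 were at least 1.5-fold lower, against 26.0% and 30.4% of 10422 features. Of 11 tested mitochondrial members none was higher and 9 were at least 1.5-fold lower. The summed nuclear level was 1.73-fold higher (1.71 to 1.75) and the mitochondrial level 0.602 of the alveolar level (0.591 to 0.612), so that the ratio of nuclear to mitochondrial counts was 2.88-fold higher (2.82 to 2.94). Within edge bands the mitochondrial ratio was 0.703, 0.300, 0.314 and 0.699 and the nuclear ratio 1.83, 1.69, 1.39 and 1.28 from the outer to the inner band. Restricted to 48 tumour and 58 alveolar spots within 500 µm of each other, the mitochondrial ratio was 0.527 (0.501 to 0.554) and the nuclear ratio 1.58 (1.54 to 1.62).

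Several values moved with this contrast and their part in it was not tested. The red blood cell list was at 23.9 CP10k in tumour and 642 CP10k in alveolar spots, and the macrophage list at 50.8 against 43.0 CP10k. The median depth of tumour spots fell from 24330 counts in the outer edge band to 4680 in the inner band, and their nuclear level from 347 to 242 CP10k. When abundant secreted and blood genes were left out of the library size, the nuclear ratio was 1.51 and the mitochondrial ratio 0.524.

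The tumour spots lay in 2 masses and 2 single spots, of which 1 had 249 mitochondrial CP10k beside a red blood cell list of 644 CP10k. The upper mass of 95 spots had a nuclear level of 330 CP10k (327 to 332) and a mitochondrial level of 85.7 CP10k (84.4 to 87.0). The lower mass of 20 spots had 240 nuclear CP10k (231 to 249) and 31.8 mitochondrial CP10k (28.5 to 35.2), a count ratio of 7.55 against 3.85 in the upper mass. Both masses thus exceeded the 188 nuclear CP10k of all alveolar spots of the section and fell short of their 138 mitochondrial CP10k. The mitochondrial order depended on which alveolar spots were used. The 7 alveolar spots within 200 µm of a tumour spot had 40.2 mitochondrial CP10k (36.2 to 44.5). That value lay below the upper and above the lower mass. The macrophage list was at 93.4 CP10k in the lower and 48.2 CP10k in the upper mass, and Csn3 with Mmp3 summed to 0.363 against 2.96 CP10k, and the median depth was 4925 against 19280 counts per spot.

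By complex, the nuclear ratio of tumour over alveolar spots was 1.46 for complex I, 1.83 for complex III, 1.81 for complex IV and 1.89 for complex V. The highest members were Cox5a, a structural subunit of complex IV (6.95 against 2.09 CP10k, ratio 3.33, 3.06 to 3.62), Atp5mpl (ratio 2.92, 2.70 to 3.16) and Atp5md (2.76, 2.57 to 2.96), small membrane subunits of complex V, Atp5g1 (2.88, 2.60 to 3.20) and Cox7b (2.82, 2.59 to 3.08). Cox4i2, Ndufa4l2 and Cox6b2 were lowest and are described with the alveolar spots. Next were Ndufv1, the NADH-binding flavoprotein of complex I (0.762 against 0.929 CP10k, ratio 0.820, 0.676 to 0.991), and Ndufa11 (0.962, 0.839 to 1.10). Among other nuclear genes for the catalytic core of complex I, chosen here for their role, the ratio was 0.985 for Ndufs7, 1.13 for Ndufs8, 1.37 for Ndufv2, 1.48 for Ndufs3 and 1.77 for Ndufs1. The core subunits named here thus spread from below 1 to above 1.5.

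The mitochondrial members of tumour spots fell unequally. The ratio to alveolar spots was 0.707 for mt-Cytb, 0.677 for mt-Co3, 0.629 for mt-Co2, 0.620 for mt-Co1 and 0.548 for mt-Atp6, and among complex I genes 0.618 for mt-Nd1, 0.431 for mt-Nd4, 0.394 for mt-Nd2, 0.381 for mt-Nd5 and 0.323 for mt-Nd3. Complex I as a whole was at 0.452 of the alveolar level and complex IV at 0.647. mt-Nd4l and mt-Atp8 overlap mt-Nd4 and mt-Atp6 in the genome, and their low counts are uncertain for that reason.

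This unequal change can be written as the share of mt-Nd genes in all mitochondrial counts, which does not depend on the total of a spot or on how many mitochondrial transcripts it gave. It was 13.5% in tumour spots (13.0 to 14.0%), 17.7% in control alveolar (17.4 to 18.0%), 18.0% in metastatic alveolar (17.7 to 18.3%), 17.7% in cardiac-type (17.4 to 18.1%), 23.0% in control airway (22.5 to 23.5%) and 27.5% in metastatic airway spots (26.8 to 28.2%). The alveolar and cardiac-type intervals overlapped, and tumour and airway spots lay on opposite sides of them. Over the 4 edge bands the share was between 11.5% and 13.9% in tumour, between 16.9% and 18.3% in metastatic alveolar, between 17.2% and 17.9% in control alveolar, between 22.4% and 23.5% in control airway and between 25.5% and 29.1% in metastatic airway spots. In the inner band the interval for tumour spots (7.36 to 16.9%) overlapped that for alveolar spots (14.4 to 19.7%), with 22 and 140 mt-Nd counts.

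Other mitochondrial genes of tumour spots differed by list. Of all 10422 features 26.0% were at least 1.5-fold higher and 30.4% at least 1.5-fold lower than in alveolar spots. Of 14 tested genes for mitochondrial DNA maintenance and transcription 8 were at least 1.5-fold higher and none lower, including the single-strand binding protein Ssbp1 (ratio 4.88), Slirp (2.49), the helicase Twnk (2.24) and Tfam (2.15). Of 78 mitochondrial ribosome genes 46 were higher and 1 lower, and of 23 assembly factors for complexes III, IV and V 14 were higher. Of 9 genes of complex II and the electron carriers 3 were higher, with Cycs at 3.73-fold, of 16 tricarboxylic acid cycle genes 7 were higher, of 11 complex I assembly factors 5 were higher and 1 lower, and of 5 regulators of mitochondrial content 1 was higher. Of 14 fatty acid oxidation genes 3 were higher and 4 lower, shares near those of all features, and of 16 glycolysis genes 11 were higher, with Eno1 at 4.47 and Gapdh at 4.08, and 1 was lower, Ldhb at 0.270. The median log2 ratio was 0.88 for the mitochondrial DNA list, 0.69 for the ribosome list, 0.0074 for fatty acid oxidation and 1.34 for glycolysis, against -0.045 for all features tested.

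Airway spots gave opposite answers for the OXPHOS level on 2 library sizes. On all counts, none of 79 nuclear members was at least 1.5-fold higher than in control alveolar spots and 42 (53.2%) were at least 1.5-fold lower, against 6.49% and 81.7% of 11989 features. In the metastatic lung none of 76 was higher and 60 (78.9%) were lower, against 3.80% and 84.7% of 10052 features. The summed nuclear ratio was 0.699 (0.692 to 0.706) in the control and 0.593 (0.585 to 0.601) in the metastatic lung. The secretoglobin Scgb1a1 alone took 5454 CP10k of the control airway and 5878 CP10k of the metastatic airway counts. When it was left out together with haemoglobin, surfactant and immunoglobulin genes, the nuclear ratio was 1.43 in the control and 1.29 in the metastatic lung, with 28 of 79 and 15 of 76 members at least 1.5-fold higher and 2 lower in each. On that library size 15.5% of 11989 control features were higher and 39.5% lower, and 14.2% of 10052 metastatic features were higher and 32.2% lower, so the 15 of 76 members (19.7%) lay near the share of all features. Within the outer edge band of the control the nuclear ratio on all counts was 1.01.

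Mitochondrial transcripts of airway spots depended on the band as well. On all counts their ratio to alveolar spots was 0.968 (0.955 to 0.981) in the control and 0.499 (0.490 to 0.507) in the metastatic lung. Within the control bands it was 2.53, 1.00, 1.10 and 0.764, and the outer band, with 16 airway spots, had a red blood cell list of 1115 CP10k against 195 CP10k in alveolar spots. Within the metastatic bands it was 0.637, 0.412, 0.653 and 0.509. Of 12 tested mitochondrial members 4 (33.3%) were at least 1.5-fold higher in the control and none lower. Of all 11989 features 6.49% were higher and 81.7% lower. The 4 were mt-Nd2 (1.54), mt-Nd4l (1.81), mt-Nd5 (1.85) and mt-Atp8 (1.89). In the metastatic lung none of 11 was higher and 7 (63.6%) were lower, against 3.80% and 84.7% of 10052 features. Without abundant genes in the library size, 12 of 12 control and 4 of 11 metastatic members were higher and none lower. On that library size 15.5% of control and 14.2% of metastatic features were higher, and the summed ratios were 1.98 and 1.08.

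Because the order of genes within a class does not depend on the library size, the members of airway spots were also compared with each other. Among those least reduced were Uqcr10 (ratio 1.14, 1.07 to 1.21, in the control and 0.999, 0.919 to 1.09, in the metastatic lung), a small subunit of complex III, Ndufa12 (1.11 and 0.814), Cox6c (0.964 and 0.886) and Ndufc2 (0.913 and 1.39). Among the 10 most reduced in both sections, apart from the alveolar forms, were the complex I core subunit Ndufv1 (0.486 and 0.365), the stalk subunit Atp5o of complex V (0.430 and 0.382) and Cox6a1 (0.445 and 0.394). By complex the nuclear ratio in the control was 0.666 for complex I, 0.868 for III, 0.690 for IV and 0.681 for V, and complex III was the least reduced in the metastatic lung too, at 0.739. On the library size without abundant genes, the nuclear level was 297, 323 and 320 per 10000 in 3 equal groups of control airway spots from the lowest to the highest ciliated share, while the mitochondrial level went from 257 to 130 per 10000. In the metastatic lung the mitochondrial level of such groups was 179, 174 and 165.5 per 10000.

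Direct comparison of tumour with airway spots was governed by the same choice. On all counts 72 of 74 nuclear members (97.3%) were at least 1.5-fold higher in tumour spots and 1 was lower, against 78.9% and 8.63% of 8223 features. Without abundant genes in the library size, 15 of 74 members (20.3%) were higher and 3 lower, against 26.6% and 24.9% of all features. The summed nuclear ratio was 2.92 (2.88 to 2.96) on all counts, and 1.17 without abundant genes. The summed mitochondrial ratio was 1.21 on all counts and 0.484 without abundant genes, so that its direction depended on the library size. The nuclear over mitochondrial ratio, which is free of that choice, was 2.42-fold higher in tumour than in airway spots (2.36 to 2.48), and between 1.84- and 4.89-fold higher in the 4 edge bands.

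Alveolar spots had the highest level of 3 isoforms, Cox4i2, Ndufa4l2 and Cox6b2, though for Cox6b2 the interval overlapped that of cardiac-type spots. Cox4i2, the lung form of subunit 4, was at 2.12 CP10k in control and 1.82 CP10k in metastatic alveolar spots, with a count in 76.0% and 76.8% of the spots. It was at 0.0874 and 0.176 CP10k in airway spots of the control and metastatic lung, 0.0897 CP10k in tumour spots and 0.886 CP10k in cardiac-type spots. As a share of Cox4i1 and Cox4i2 counts it made up 22.6% (21.7 to 23.4%) and 21.7% (20.4 to 23.1%) in the 2 sets of alveolar spots, 0.807% (0.479 to 1.27%) in tumour spots and 1.45% (0.980 to 2.06%) in control airway spots. The tumour ratio of 0.0491 (0.0290 to 0.0782) was the lowest of the 77 nuclear members tested.

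Ndufa4l2 was distributed like Cox4i2, at 0.896 and 0.912 CP10k in control and metastatic alveolar spots, 0.0797 CP10k in tumour and 0.0582 CP10k in control airway spots. Its share of Ndufa4 and Ndufa4l2 counts was 14.3% (13.4 to 15.2%), 16.5% (15.0 to 18.1%), 1.45% (0.830 to 2.34%) and 1.53% (0.935 to 2.35%). Cox6b2, a form best known from testis, was at 0.363 and 0.284 CP10k in alveolar spots and 0.0548 CP10k in tumour spots, with 348, 120 and 11 counts. In cardiac-type spots Cox6b2 was at 0.247 CP10k (0.163 to 0.359) with 27 counts. That interval overlapped those of control (0.326 to 0.403) and metastatic alveolar spots (0.236 to 0.340). The fibroblast marker list moved with these genes, at 57.0 CP10k in control alveolar, 51.7 CP10k in metastatic alveolar, 9.02 CP10k in tumour and 8.46 CP10k in control airway spots, but it was at 43.2 CP10k in cardiac-type spots. The capillary list, which the alveolar rule used, was at 44.4 and 47.3 CP10k in control and metastatic alveolar, 18.1 CP10k in cardiac-type, 2.16 CP10k in tumour and 2.90 CP10k in control airway spots. The part of either list in the difference was not tested. In bulk spots fewer cells of a type and less RNA per cell cannot be told apart.

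The c subunit of complex V, encoded by 3 genes for the same mature protein, also changed its make-up. Atp5g1 supplied 50.7% of Atp5g1, Atp5g2 and Atp5g3 counts in cardiac-type spots (48.9 to 52.5%) and 32.7% in tumour spots (31.0 to 34.6%), against 22.6% in both control (21.5 to 23.7%) and metastatic alveolar spots (21.1 to 24.2%). Atp5g2 supplied 20.9% in cardiac-type spots and between 41.8% and 49.2% in the other classes.

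Between the sections, alveolar spots had similar nuclear and different mitochondrial levels. None of 79 nuclear members was at least 1.5-fold higher in the metastatic section and 3 (3.80%) were at least 1.5-fold lower, against 4.18% and 9.36% of 12022 features. The 3 were the muscle forms Cox7a1 (ratio 0.203), Cox6a2 (0.334) and Cox8b (0.354), and the other 76 lay between log2 ratios of -0.38 and 0.35. The summed nuclear ratio was 0.961 (0.953 to 0.969). Of 12 mitochondrial members 9 were at least 1.5-fold higher, and their summed ratio was 1.66 (1.64 to 1.68). Within the edge bands the mitochondrial ratio was 1.75, 1.62, 1.36 and 0.720 from the outer to the inner band, with 13 metastatic spots in the last, and the red blood cell list was at 642 CP10k in metastatic and 318 CP10k in control alveolar spots. The direction of the mitochondrial difference thus changed with the band.

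In airway spots, 1 of 78 nuclear members was at least 1.5-fold higher in the metastatic section, Cox4i2 (0.176 against 0.0874 CP10k), and 6 were at least 1.5-fold lower, against 5.74% and 13.0% of 7513 features. The 6 included the muscle forms, with Cox8b at 0 of 791 counts of its pair in the metastatic and 55 of 1578 in the control section. The cardiac muscle list was at 4.58 CP10k in control and 0.814 CP10k in metastatic airway spots, and the capillary list at 2.90 and 5.09 CP10k; their part in these differences was not tested. Of 11 mitochondrial members none passed 1.5-fold in either direction.

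Around the tumour spots, on all counts, the nuclear level decreased outwards and the mitochondrial level increased. All spots other than tumour and airway spots held 244 nuclear CP10k (241 to 246) within 200 µm of a tumour spot, 189 CP10k from 200 to 400 µm, 176 CP10k from 400 to 800 µm and 174 CP10k beyond (172 to 175). Their mitochondrial level was 49.7, 70.8, 81.3 and 154 CP10k in the same rings. Alveolar spots alone, of which 7 lay in the first ring, had nuclear levels of 199, 188, 190 and 186 CP10k and mitochondrial levels of 40.2, 72.8, 102 and 168 CP10k. The nuclear level of alveolar spots therefore changed little with distance, and 7 of the 98 spots in the first ring were alveolar. The red blood cell list rose with distance too, from 155 to 796 CP10k in alveolar spots, and its part in the mitochondrial rise was not tested.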

How the data were processed

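Visium libraries of 1 control and 1 metastatic (4T1) mouse lung section were analysed. The deposited values are raw counts of molecules (UMIs) for each spot under tissue; per the submitters' processing notes the tools were Space Ranger 1.3.1 and the mm10 genome; the annotation version is not given in the sources used here. Counts of subunit genes with near-identical pseudogenes depend on how shared reads were assigned. The 858 barcodes that both sections hold are array positions and mark no shared cells.

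Python 3.11.15 with numpy 2.4.6, scipy 1.17.1, pandas 2.3.3 and matplotlib 3.10.9 was used. The members, marker genes, gene lists and tests were chosen with earlier results of these data known, and the class thresholds after the marker levels had been seen. Class thresholds were counts per 10000 outside Scgb1a1, haemoglobin and the members: airway, club markers at least 400; cardiac-type, at least 200; alveolar, type I and capillary markers at least 100, with under 100 club and 20 cardiac; tumour, cell cycle genes of the spot and its neighbours at least 2 and alveolar markers under 20. Spots with under 1000 counts outside these same genes were left out.

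Levels are summed counts per 10000 counts (CP10k) with exact 95% Poisson intervals, ratios carry exact binomial intervals, and the ratio of nuclear to mitochondrial ratios a normal interval on the log scale. Features with at least 50 counts over both sides were compared at 1.5-fold, log2 ratios used a pseudocount of 0.5, and 0 counts allow for up to 3. Single genes are sparse at these spot depths, so classes were summed before genes were compared. Named genes were all paralogues, all mitochondrial members and the 5 highest and lowest nuclear members per comparison; others were chosen for their role. Some single-gene results are not reported here. The comparison code was tested on simulated counts. Alternatives changed the library size (406 genes left out), spot depth (5000 counts), thresholds, pooling, members and count minimum; edge bands, neighbouring spots within 500 µm, haemoglobin groups and separate tumour masses were added after seeing the data.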

Additional observations from a re-analysis of the deposited data

How the results depend on the processing

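Across 123 results and 697 alternative values, 272 stayed within the counting interval of the reported value, 390 left it without changing direction and 35 changed direction. The cause of the shifts was not tested. No paired analysis was possible because each group holds 1 section. Depth limits single genes in single spots. Thinning dropped spots with under 5000 counts and gave each kept spot the same weight, and some sums over a class turned.

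With abundant secreted and blood genes left out of the library size, the airway over alveolar ratio in the control turned from below to above 1 for the nuclear sum (1.426), the mitochondrial sum (1.976), nuclear complexes I (1.359), III (1.772), IV (1.407) and V (1.39) and mitochondrial complexes IV (1.841) and V (1.659), with 28 nuclear members at least 1.5-fold higher and 2 lower, against 15.5% and 39.5% of all features. In the metastatic lung it turned for the nuclear (1.286) and mitochondrial sum (1.082), nuclear complexes I (1.255), III (1.603), IV (1.287) and V (1.207) and mitochondrial complexes I (1.656) and III (1.239), with 15 members higher and 2 lower, against 14.2% and 32.2%. Tumour over airway turned to below 1 for the mitochondrial sum (0.4844), nuclear complex III (0.9962) and mitochondrial complexes III (0.4971), IV (0.5908) and V (0.6052). Cardiac-type over alveolar was 3.677 (nuclear) and 5.284 (mitochondrial), and tumour over alveolar 1.507 and 0.524. Without mitochondrially encoded genes in the library size, the cardiac-type ratios were 3.996 and 5.743.

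With spots thinned to 5000 counts, cardiac-type over alveolar was 3.697 (nuclear) and 0.6674 (nuclear over mitochondrial). Airway over alveolar in the control was 0.7427 (nuclear), 0.6199 (nuclear over mitochondrial) and, with direction changed, 1.198 (mitochondrial), 1.127 (mitochondrial complex IV) and 1.048 (mitochondrial complex V), with 1 member higher. In the metastatic lung it was 0.6207 and 1.267, with 1 member higher. Tumour over alveolar was 1.662 (nuclear), 0.5079 (mitochondrial) and 3.271 (nuclear over mitochondrial), and the nuclear over mitochondrial ratio of metastatic over control airway turned to 1.074.

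With stricter marker thresholds, nuclear, mitochondrial and nuclear over mitochondrial ratios were 4.286, 6.636 and 0.6459 for cardiac-type and 0.5562, 0.3911 and 1.422 for metastatic airway over alveolar spots; tumour gave 1.815 (nuclear) and 3.041 (nuclear over mitochondrial). With looser thresholds they were 3.553, 4.326 and 0.8213 for cardiac-type, 0.7366, 0.9101 and 0.8094 for control airway and 0.6486, 0.5241 and 1.237 for metastatic airway, and tumour gave 1.703 and 2.8. Mitochondrial complex III of control airway turned to 0.9755 with looser thresholds, and metastatic over control airway (nuclear over mitochondrial) turned to 1.035 with stricter and 1.087 with looser thresholds.

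As medians over spots, the same 3 ratios were 3.749, 6.42 and 0.6024 for cardiac-type, 0.6333, 0.3951 and 1.412 for metastatic airway and 1.66, 0.2845 and 5.853 for tumour over alveolar spots; control airway gave 0.6848 (nuclear), 0.9152 (mitochondrial) and 0.9084 (mitochondrial complex III, direction changed). Tumour over airway turned to 0.7201 for the mitochondrial sum and 0.9225, 0.9229 and 0.8232 for mitochondrial complexes III, IV and V. Against alveolar spots within 500 µm they were 3.711, 5.904 and 0.6287 for cardiac-type, 0.6911, 1.034 (direction changed) and 0.6683 for control airway and 1.578, 0.527 and 2.995 for tumour; metastatic airway gave 0.5688 (mitochondrial) and 1.047 (nuclear over mitochondrial). Without the tissue isoforms the nuclear ratio was 3.61 (cardiac-type), 0.7089 (control airway) and 1.755 (tumour). Leaving out 1 mitochondrial gene at a time gave mitochondrial ratios of 5.282 to 5.733 (cardiac-type), 0.943 to 1.003 (control airway, where the direction changed), 0.4754 to 0.5401 (metastatic airway) and 0.5768 to 0.6124 (tumour).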

Other observations

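Within alveolar spots other genes moved with the mitochondrial level. Over 734 features in 1029 control alveolar spots, the highest Pearson coefficients with the log mitochondrial level were those of Hbb-bs (0.688), Hbb-bt (0.649), Hba-a1 (0.622) and Tpt1 (0.520), and over 258 features in 400 metastatic alveolar spots those of Hbb-bt (0.769), Hba-a1 (0.766), Hbb-bs (0.729) and Hba-a2 (0.724). Transcripts of ribosomal proteins such as Rps29 (0.461 and 0.425) followed. The lowest coefficients in both sections included those of the nuclear non-coding RNA Neat1 (-0.508 and -0.489), the endothelial gene Egfl7 (-0.449 and -0.516) and the RNA helicase Ddx5 (-0.486 and -0.414). The spots share 1 library per section, so these are descriptions.

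Over the 6 class pools, the features outside the rule whose log2 level was most like the nuclear sum were Eno3 (r = 0.992), Acadl (0.992), Ndufab1 (0.992), Fmc1 (0.989) and Sdhb (0.989), among 3606 features with at least 1000 counts. The pools share sections, and cardiac-type spots carry most of the range. Spots that met no class had a nuclear over mitochondrial count ratio of 1.34 in the control (585 spots) and 1.959 in the metastatic lung (511 spots).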
